A study of Fundulus heteroclitus with 53 samples.

Results

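This comparison set the livers of Atlantic killifish (Fundulus heteroclitus) from New Bedford Harbor (NBH) against those of fish from Scorton Creek (SC), with both populations held under mild hypoxia. The libraries were chosen by their labels, as the RNA-seq libraries whose treatment was 10% hypoxia, which gave 5 NBH fish and 5 SC fish, or 10 of the 30 RNA-seq libraries and of the 53 samples of the series. All 10 fish were juveniles 6 months old, raised in the laboratory as the first generation from adults caught at the site, and each was kept alone in a dish at 10% oxygen saturation for 6 h before its liver was dissected. The other RNA-seq libraries came from NBH and SC fish of the same age that were held for the same time under severe hypoxia (5% oxygen) or as controls at ambient oxygen. The eggs of each population came from only a few females and were fertilised in vitro, so that a difference between the populations and a difference between a few families cannot be told apart. The sex of the fish was not given. The question was which liver transcripts differ between the populations when both meet the same low oxygen.

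New Bedford Harbor is an estuary long polluted with polychlorinated biphenyls, and its killifish are known for their inherited resistance to dioxin-like compounds, which act through the aryl hydrocarbon receptor (AHR). Scorton Creek is a less polluted marsh whose fish remain sensitive. The hypoxia-inducible factors (HIF) and AHR pair with the same partner protein, ARNT, to bind DNA. In vertebrates HIF switches on genes of glucose use, oxygen sensing and blood supply, while the liver itself makes most plasma proteins, among them the complement and clotting factors.

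Library sizes differed between the populations. The 5 NBH libraries held 14340624 to 19074355 counts (median 16942104), while 4 of the 5 SC libraries held 6867133 to 8466811 counts and SC fish 1 held 15404373. Over the 30 libraries the totals ran from 4955114 to 23849931 counts. The livers were rich in hepatocyte transcripts, since all 27 listed hepatocyte markers had counts and their summed level was 163224 to 192538 CPM (read counts scaled to one common library size) in NBH fish and 127994 to 163893 CPM in SC fish. Among the markers of other tissues, the summed skeletal muscle level was 412 to 498 CPM in NBH fish and 188 to 387 CPM in SC fish, without overlap, although 0 of its 11 tested genes differed at the threshold used below. The enolase gene eno3, which is also on the glycolysis list, made up 90.9% of this sum over the 10 fish. The sum therefore mostly follows that gene. The macrophage and neutrophil markers summed to 28.1 to 66.1 CPM in NBH fish and 20.5 to 36.0 CPM in SC fish, with 12 of 13 higher in NBH fish and 0 past the threshold. Of all genes tested below, 50.3% were higher in NBH fish and 1.26% past the threshold. The sums for bile duct, stellate, endothelial, lymphoid, erythroid, pancreatic and intestinal markers overlapped between the populations. In a principal component analysis of the 10 fish, component 1 carried 25.2% of the variance and had all NBH fish on one side and all SC fish on the other. NBH fish 3 stood apart on component 2 (15.9%), at 66.2, where the other NBH fish lay between -12.7 and 4.54. Mitochondrial genes took 6.18% of its counts, against 2.62 to 3.13% in the other NBH fish and 3.37 to 7.41% in SC fish.

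Under mild hypoxia 171 of 13605 tested genes differed between NBH and SC fish, which is 1.26% of those tested, by the quasi-likelihood test of edgeR at an adjusted p under 0.05 (Benjamini-Hochberg). Of these, 95 were higher in NBH fish (0.698% of tested genes) and 76 were lower (0.559%). Differences are given on the log2 scale as NBH minus SC, and their size ran from 0.56 up to 10.07 among higher genes and down to -9.50 among lower genes. In 129 of the 171 genes every NBH fish lay above every SC fish (75 genes) or below (54 genes), whereas 507 of all tested genes (3.73%) were so separated. A gene name other than a LOC number was available for 57 of the higher and 47 of the lower genes. The count moved when single fish were left out and when scaling or library size was handled otherwise. The cause of these moves was not tested. Without TMM scaling factors 221 genes were called, 69 higher and 152 lower, with the median of all genes at -0.11. The count was 330 without NBH fish 3, 107 without NBH fish 2 and 106 without SC fish 2, and it was 68 with the log2 total count of each library as a covariate (the depth covariate) and 153 with all libraries thinned to the smallest total. Most SC libraries under mild hypoxia were smaller than every NBH library, so the depth covariate cannot fully tell depth from population.

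**Figure D1:**
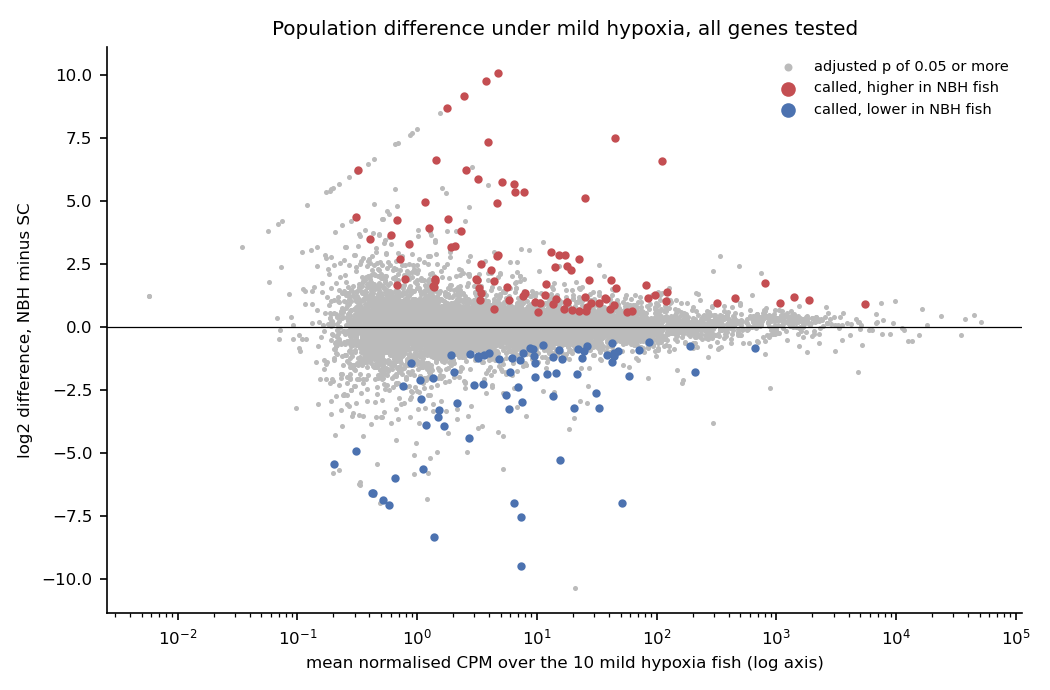
Each point is 1 of the tested genes, with the mean normalised CPM over the 10 mild hypoxia fish on a log axis and the log2 difference, NBH minus SC, on the vertical axis; genes at 0 in all 10 fish are not drawn. The 95 genes higher in NBH fish and the 76 lower genes lie over the whole range of levels, and of the differences above 5 in size most, though not that of LOC118564141, are at low levels.

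The named genes with the largest differences in the direction of NBH, among those averaging at least 5 CPM and with no overlap between the populations, were lratd1, plp1a, osmr, eif2b1 and tmem70. The lratd1 gene (LRAT domain containing; chromosome 15, 15800789 to 15808343 in the MU-UCD_Fhet_4.1 assembly, as are all positions here) gave 13.3, 14, 8.84, 10.9 and 15.8 CPM in NBH fish, against 0, 0, 0.676, 0.475 and 0.233 CPM in SC fish. Transcripts were at or near 0 in every SC fish and at least 8.84 CPM in every NBH fish (log2 difference 5.67, SE 0.78, adjusted p = 0.00014). The myelin proteolipid gene plp1a, on an unplaced scaffold, gave 14.3, 7.83, 5.29, 12.1 and 24.8 CPM in NBH fish, against 0.293, 0, 1.08, 0.119 and 0.117 CPM in SC fish (log2 difference 5.34, SE 1.12, adjusted p = 0.0107). Its NBH values varied more among themselves than those of lratd1, with fish 5 the highest and fish 3 the lowest, and with the depth covariate the difference was 5.23 and not called (adjusted p = 0.0546). Oncostatin M receptor (osmr; chromosome 12, 13060083 to 13076454), a receptor for a cytokine of the interleukin family that drives the acute phase response of the liver in mammals, gave 47, 10.4, 14.9, 46.2 and 15.9 CPM in NBH fish, against 3.69, 3.46, 2.7, 5.11 and 3.61 CPM in SC fish (log2 difference 2.85, SE 0.46, adjusted p = 0.000672). NBH fish 1 and 4 were about as high as each other and far above the other NBH fish, and the lowest NBH fish still stood above the highest SC fish. Of 7 listed genes of interleukin 6 family signalling, osmr among them, 4 were tested, and jak1, il6r and socs3b were not. The others tested did not differ at the threshold, with log2 differences of -0.05 for il6st, 0.11 for stat3 and 0.43 for socs3a.

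2 subunits of eIF2B, the exchange factor that recharges the initiation factor eIF2 and is a control point of translation under stress, were higher in NBH fish. The alpha subunit eif2b1 (chromosome 8, 29196508 to 29202084) gave 27.3, 32.9, 22, 29.1 and 6.62 CPM in NBH fish, against 4.81, 4.22, 5.54, 5.47 and 2.8 CPM in SC fish (log2 difference 2.37, SE 0.62, adjusted p = 0.0497). NBH fish 5 stood near the SC range and the other NBH fish far above it. The call for eif2b1 was lost without NBH fish 1, 2 or 4 or SC fish 1, 2, 3, 4 or 5 (adjusted p up to 0.113) and with the depth covariate (adjusted p = 0.476), and, with nearly the same difference and an adjusted p just over the threshold, without NBH control fish 2, 3 or 5, any SC control fish or any SC severe hypoxia fish. Its span overlaps that of ddx55. The gamma subunit eif2b3 gave 20.8, 26.5, 17.1, 20.2 and 18.6 CPM in NBH fish, against 11, 13.7, 12, 13.3 and 14.2 CPM in SC fish (log2 difference 0.68, SE 0.15, adjusted p = 0.0182), a smaller difference with no overlap. The beta and delta subunits eif2b2 and eif2b4 had log2 differences of 0.12 and -0.18, both short of the threshold. These subunits were looked up after eif2b1 had been seen.

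tmem70, which in mammals helps to assemble the mitochondrial ATP synthase, lies on an unplaced scaffold and gave 98, 44.7, 108, 36.4 and 35.3 CPM in NBH fish, against 16.5, 19.7, 21.5, 13.2 and 18.7 CPM in SC fish (log2 difference 1.85, SE 0.37, adjusted p = 0.00823). The NBH values fell into a high pair, fish 1 and 3, and 3 lower fish, all above the SC range. paics, which carries out consecutive steps of purine synthesis (chromosome 9, 30962848 to 30975286), gave 119, 126, 111, 193 and 126 CPM in NBH fish, against 50.5, 49.9, 65.4, 58.6 and 60.5 CPM in SC fish (log2 difference 1.24, SE 0.24, adjusted p = 0.00463). NBH fish 4 was the highest, and the other NBH fish lay close together at 111 to 126 CPM. For paics, with the depth covariate the difference was 0.96 and not called (adjusted p = 0.142). Of the 8 tested purine synthesis genes, looked up after paics had been seen, paics was the 1 past the threshold, and its neighbour ppat, whose span overlaps that of paics, had a log2 difference of 0.57 (adjusted p = 0.227). tomm6, a small subunit of the channel through which proteins enter mitochondria, gave 19.7 ± 2.29 CPM in NBH fish and 9.36 ± 1.74 CPM in SC fish (SD, n = 5 each; log2 difference 1.08, SE 0.24, adjusted p = 0.0191), a call lost without SC fish 1 or 2 (adjusted p up to 0.0572) and with the depth covariate (adjusted p = 0.161). fam162a, a mitochondrial gene that hypoxia induces in mammals, averaged 34.8 ± 9.35 CPM in NBH fish and 15.3 ± 3.45 CPM in SC fish (SD, n = 5 each; log2 difference 1.19, SE 0.28, adjusted p = 0.0265). Its call was lost without NBH fish 1, 2 or 4 or SC fish 2, 4 or 5 (adjusted p up to 0.0788) and with the depth covariate (adjusted p = 0.247).

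xiap, an inhibitor of caspases (chromosome 23, 29862878 to 29867571), gave 66.5, 36.7, 34.4, 58.3 and 57.5 CPM in NBH fish, against 27.3, 22, 19.3, 22.3 and 23.4 CPM in SC fish (log2 difference 1.15, SE 0.2, adjusted p = 0.00163). The lowest NBH fish, fish 3, was above the highest SC fish, fish 1. The gene beside it in the assembly is psmd10, which in mammals helps to assemble the proteasome, and it gave 7.83 ± 1.46 CPM in NBH fish and 3.8 ± 0.649 CPM in SC fish (SD, n = 5 each; log2 difference 1.05, SE 0.25, adjusted p = 0.0333), with 5261 bases between the gene spans. The call for psmd10 was lost without NBH fish 2, 4 or 5 or SC fish 1, 2, 3, 4 or 5 (adjusted p up to 0.0999) and with the depth covariate (adjusted p = 0.254). Among the remaining higher genes of this set, dbn1, which encodes the actin-binding protein drebrin, differed by 1.69 (SE 0.33, adjusted p = 0.00696), rnf150a by 1.57 (SE 0.25, adjusted p = 0.000754) and csdc2b, an RNA-binding cold shock domain gene, by 1.32 (SE 0.25, adjusted p = 0.00423). Those calls held without each of the 10 fish, but that for csdc2b was lost when only the 10 mild hypoxia fish were fitted (adjusted p = 0.053). si:dkey-4e7.3 differed by 1.52 (SE 0.36, adjusted p = 0.0271) and the small GTPase gene arl14 by 1.22 (SE 0.3, adjusted p = 0.0394). The call for si:dkey-4e7.3 was lost without NBH fish 1 or 4 or SC fish 2 or 4 (adjusted p up to 0.0729) and with the depth covariate (adjusted p = 0.148) and that for arl14 without NBH fish 2, 3 or 4 or SC fish 1, 4 or 5 (adjusted p up to 0.104) and with the depth covariate (adjusted p = 0.05).

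**Figure D2:**
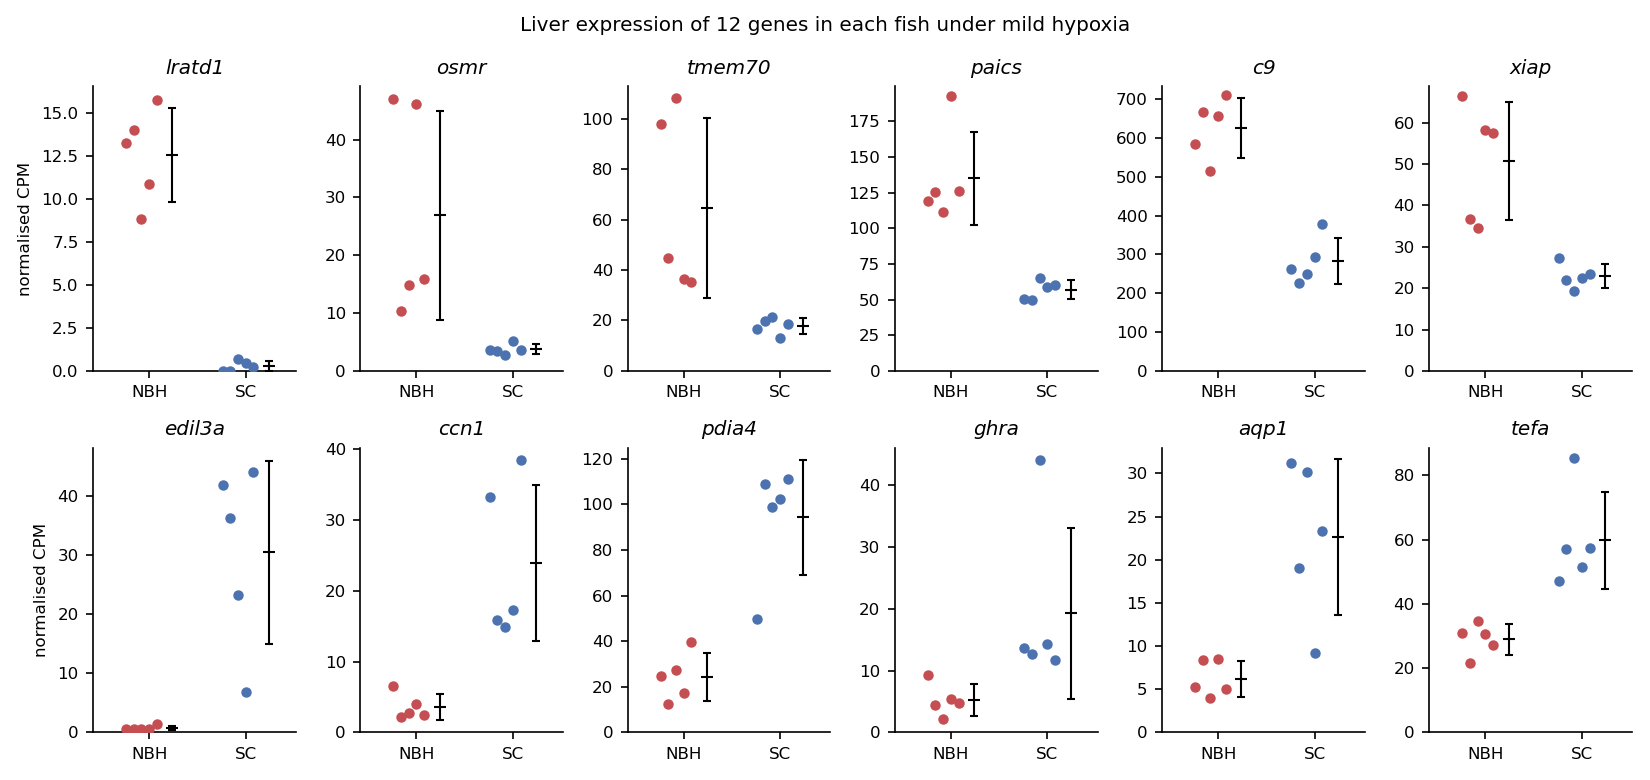
Normalised CPM of 12 genes in each mild hypoxia fish, NBH left of SC in each panel, with the mean and SD (n = 5) as a bar beside the points; each vertical axis starts at 0 and has its own scale. The 12 genes come from a set chosen for having no overlap between the populations, so the points do not overlap in any panel. NBH fish 1 and 4 for osmr (47 and 46.2 CPM) and SC fish 3 for ghra (43.9 CPM) stand well above the rest of their group.

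Among the genes lower in NBH fish, edil3a had the largest difference of the set. It encodes a secreted integrin-binding protein made by endothelial cells in mammals (chromosome 12, 28518321 to 28703482) and gave 0.574, 0.638, 0.639, 0.599 and 1.45 CPM in NBH fish, against 41.8, 36.2, 23.1, 6.89 and 43.9 CPM in SC fish (log2 difference -5.3, SE 0.85, adjusted p = 0.000672). Every NBH fish was below 1.5 CPM, whereas the SC fish spread widely, with fish 4 the lowest. The span of edil3a overlaps that of LOC118564945. The summed level of the endothelial markers overlapped, at 65.5 to 102 CPM in NBH fish and 64.7 to 92.8 CPM in SC fish. In a liver homogenate, fewer cells of a type and less RNA per cell cannot be told apart. ccn1, a secreted matrix protein gene (chromosome 9, 4823889 to 4826595), gave 6.54, 2.15, 2.73, 3.99 and 2.41 CPM in NBH fish, against 33.2, 15.9, 14.9, 17.2 and 38.4 CPM in SC fish (log2 difference -2.74, SE 0.4, adjusted p = 0.000314). SC fish 1 and 5 were the highest, and the highest NBH fish, fish 1, was below the lowest SC fish. Its relative ccn2a differed by 0.56 (adjusted p = 0.487).

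pdia4, a protein disulfide isomerase of the endoplasmic reticulum (chromosome 21, 19142429 to 19148529), gave 24.8, 12.3, 27.4, 17.2 and 39.9 CPM in NBH fish, against 49.9, 109, 99, 103 and 111 CPM in SC fish (log2 difference -1.95, SE 0.3, adjusted p = 0.000546). SC fish 1 was low for its group, yet above every NBH fish. The other 5 tested isomerase genes of the family did not differ at the threshold, with log2 differences between -0.28 for pdia5 and 0.78 for pdia2. The gene next to pdia4, si:ch211-217a12.1, with 53 bases between the spans, was also lower in NBH fish, with a difference of -0.86 (adjusted p = 0.0107). On the ER stress and unfolded protein response list pdia4 was the 1 gene called of 34 tested, beside 1.26% of all tested genes. The median of that list was -0.07, beside 0.0021 over all tested genes.

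The growth hormone receptor gene ghra (chromosome 12, 8767103 to 8803153) gave 9.35, 4.35, 2.21, 5.39 and 4.69 CPM in NBH fish, against 13.6, 12.7, 43.9, 14.3 and 11.8 CPM in SC fish (log2 difference -1.88, SE 0.45, adjusted p = 0.0302). SC fish 3 was far above the other SC fish, and NBH fish 1 came nearest to the SC range. The call was lost without NBH fish 2, 3, 4 or 5 or SC fish 3 (adjusted p up to 0.119) and with the depth covariate (adjusted p = 0.155). The paralogue ghrb differed by 0.69 (adjusted p = 0.232) and igf1, the main liver target of growth hormone, by -0.14. The water channel gene aqp1 (chromosome 6, 21264341 to 21266474) gave 5.28, 8.36, 3.95, 8.54 and 5.03 CPM in NBH fish, against 31.3, 19.1, 30.1, 9.15 and 23.3 CPM in SC fish (log2 difference -1.86, SE 0.4, adjusted p = 0.0141). The populations were separate by a narrow margin, between NBH fish 4 and SC fish 4. aqp1 was still called without each of the 10 fish in turn, but with the depth covariate the difference was -1.75 and not called (adjusted p = 0.0814).

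tefa, a transcription factor of the output arm of the circadian clock (chromosome 10, 28717065 to 28731576), gave 30.9, 21.7, 34.6, 30.6 and 27.3 CPM in NBH fish, against 47.2, 57.2, 85.4, 51.4 and 57.5 CPM in SC fish (log2 difference -1.04, SE 0.17, adjusted p = 0.000672). The lowest SC fish was fish 1, and SC fish 3 was the highest. setd4, a SET domain methyltransferase gene, averaged 2.23 ± 1.32 CPM in NBH fish and 11.8 ± 3.75 CPM in SC fish (SD, n = 5 each; log2 difference -2.39, SE 0.45, adjusted p = 0.00449). The cytosolic seryl-tRNA synthetase gene sars1 averaged 28.3 ± 8.39 CPM in NBH fish and 60.1 ± 6.88 CPM in SC fish (SD, n = 5 each; log2 difference -1.09, SE 0.23, adjusted p = 0.0107). rdh12, a retinol dehydrogenase gene, differed by -1.41 (SE 0.32, adjusted p = 0.0215), and its call was lost without NBH fish 2 or SC fish 3 or 5 (adjusted p up to 0.0715) and with the depth covariate (adjusted p = 0.15). mcrip2 differed by -1.27 (SE 0.26, adjusted p = 0.00895) with its call kept without each fish, but with the depth covariate the difference was -1.29 and not called (adjusted p = 0.0546). zgc:113263 differed by -1.19 (SE 0.26, adjusted p = 0.0169), lost without SC fish 1 (adjusted p up to 0.0547).

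mfge8b, whose product marks dying cells for uptake in mammals, differed by -1.17 (SE 0.29, adjusted p = 0.0403), and the call was lost without NBH fish 1, 2, 4 or 5 or SC fish 1, 2, 3 or 5 (adjusted p up to 0.107) and with the depth covariate (adjusted p = 0.0979). The Golgi membrane gene golm2 differed by -1.05 (SE 0.24, adjusted p = 0.0235) and lost its call without NBH fish 1, 2 or 4 or SC fish 1 or 2 (adjusted p up to 0.085) and with the depth covariate (adjusted p = 0.0532). For asb13b the difference was -0.98 (SE 0.25, adjusted p = 0.0403), lost without NBH fish 1, 2, 4 or 5 or SC fish 1, 4 or 5 (adjusted p up to 0.119). bri3 differed by -0.94 (SE 0.21, adjusted p = 0.0203), lost without NBH fish 4 or 5 or SC fish 2 or 3 (adjusted p up to 0.0683) and with the depth covariate (adjusted p = 0.0997). Of the 30 genes that made up the higher and lower sets, 15 each, 18 were called without each of the 10 fish in turn, 10 of them higher and 8 lower in NBH fish, and 15 were called with the depth covariate. Of the 46 called genes named by rule or by list, 26 were not called with the depth covariate (adjusted p up to 0.476). With only the 10 mild hypoxia fish fitted, the calls for csdc2b, si:dkey-4e7.3, arl14, ghra, golm2, asb13b and bri3 were lost. So were those for c7b, ahsg2, eif3ea, trpc1, bmf2 and sdc4, described below.

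Of the AHR pathway list, 6 genes were tested and 0 were called, beside 1.26% of all tested genes. The receptor gene ahr2, the main AHR of killifish, gave 49.3, 34.8, 27.3, 39.8 and 28.5 CPM in NBH fish, against 29, 24.1, 36.8, 32.8 and 22.1 CPM in SC fish (log2 difference 0.31, SE 0.17, adjusted p = 0.414), and the ranges overlapped. nqo1, a quinone reductase that AHR and oxidative stress induce, gave 2.06, 1.68, 0.93, 2.3 and 2.69 CPM in NBH fish, against 0.41, 0.896, 0.27, 1.19 and 0.233 CPM in SC fish (log2 difference 1.69, SE 0.49, adjusted p = 0.0777). NBH fish 3 lay within the SC range and the other NBH fish above it, and without NBH fish 3 the gene was called, with a difference of 1.87. arnt2 differed by 1.23 (adjusted p = 0.168), arnt by 0.19, and the chaperone genes ptges3a and ptges3b by -0.23 and -0.26. The median over the 6 genes was 0.25, with 4 positive. Any member of the pathway with a LOC number only could not enter the list, which was matched by gene symbol. The cytochrome P450 genes were not analysed here.

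On the list of HIF pathway members and hypoxia targets, 1 of 31 tested genes was called, beside 1.26% of all tested genes. The median was -0.16 with 11 genes positive, beside a median of 0.0021 and 50.3% positive over all tested genes. The called gene, pdk3a, encodes a kinase that holds pyruvate dehydrogenase inactive and so limits the entry of pyruvate carbon into the citric acid cycle (chromosome 21, 18582140 to 18596421). It gave 1.66, 1.92, 1.8, 2.9 and 1.66 CPM in NBH fish, against 5.34, 4.48, 5.27, 3.09 and 4.43 CPM in SC fish (log2 difference -1.18, SE 0.23, adjusted p = 0.00696). NBH fish 4 was the highest of its group, just below SC fish 4, the lowest of the other. pdk2a and pdk4 differed by -0.42 and 0.29, short of the threshold. The HIF subunit gene hif1aa gave 32.9 ± 4.01 CPM in NBH fish and 33.8 ± 3.91 CPM in SC fish (SD, n = 5 each), a difference of -0.04 (adjusted p = 0.948) whose sign turned without NBH fish 1 or SC fish 1 and after thinning. The oxygen-sensing hydroxylase gene egln3 differed by -0.88 (adjusted p = 0.751), vegfab by -0.58 and slc2a1a by -1.22, none of them at the threshold. Among the 11 positive genes, pfkfb3 differed by 2.003, p4ha2 by 1.61, arnt2 by 1.23 and hif1al by 0.98, also short of the threshold. By the same test at an unadjusted p under 0.05, 4 genes of the list were higher in NBH fish and 3 lower, pdk3a among the lower. pdk3a was also the 1 called gene of the 44 tested on the list of glycolysis, gluconeogenesis and glycogen, whose median was -0.01.

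Of 36 tested complement, clotting and acute phase genes 2 were called, both higher in NBH fish, beside 0.698% of all tested genes called higher. Both belong to the terminal part of complement that forms the membrane attack complex. c9, the component that builds the pore (chromosome 8, 25358064 to 25368731), gave 584, 666, 514, 656 and 709 CPM in NBH fish, against 263, 227, 249, 294 and 378 CPM in SC fish (log2 difference 1.15, SE 0.22, adjusted p = 0.00489). The populations were far apart, with no NBH fish under 514 CPM and no SC fish over 378 CPM. c7b (chromosome 8, 6299356 to 6314667) gave 1368, 1647, 214, 1572 and 1353 CPM in NBH fish, against 383, 204, 683, 365 and 235 CPM in SC fish (log2 difference 1.72, SE 0.38, adjusted p = 0.0191). NBH fish 3 was within the SC range and the other NBH fish were at or above 1353 CPM. Without NBH fish 3 the difference of c7b was 1.99, and the call was lost without NBH fish 2 or SC fish 2 or 5 (adjusted p up to 0.063) and with the depth covariate (adjusted p = 0.145). For c9, with the depth covariate the difference was 0.98 and not called (adjusted p = 0.0806).

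The other terminal components differed in the same direction without reaching the threshold, with 0.85 for c8b (adjusted p = 0.0695), 0.84 for c8a (adjusted p = 0.0918), 0.36 for c6, 0.15 for c7a and 0.14 for c8g. They were grouped after c7b and c9 had been seen. Over the whole list of complement, clotting and acute phase genes, 32 of 36 tested genes were positive and the median was 0.25, beside 50.3% positive over all tested genes. The hepatocyte marker list moved in the same direction, with 20 of 26 tested genes positive and a median of 0.15, and its part in the complement result was not tested. The lists share f2, fga, fgb, fgg, itih2, kng1, serpinc1 and serpind1, all of them positive, so they are not separate sets of genes. The 1 hepatocyte marker called, the fetuin gene ahsg2, gave 6945, 6633, 7577, 6121 and 8396 CPM in NBH fish, against 2828, 3006, 5380.4, 3357 and 4845 CPM in SC fish (log2 difference 0.88, SE 0.19, adjusted p = 0.0154). The lowest NBH fish stood above the highest SC fish, and the call was lost without SC fish 1 or 2 (adjusted p up to 0.0532) and with the depth covariate (adjusted p = 0.2).

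The circadian list held 2 calls of opposite direction among 30 tested genes, tefa and clockb, beside 1.26% of all tested genes. clockb, a partner in the activating arm of the clock (chromosome 5, 10321097 to 10359033), gave 18.5, 13, 11.4, 14.3 and 12 CPM in NBH fish, against 7.09, 6.4, 7.03, 7.25 and 8.39 CPM in SC fish (log2 difference 0.94, SE 0.21, adjusted p = 0.0171). Every NBH fish was above every SC fish, and the call was lost without NBH fish 1 or SC fish 2 (adjusted p up to 0.0557) and with the depth covariate (adjusted p = 0.0546). The light- and clock-driven genes per2, per3, nr1d1 and cry1b differed by -0.70, -0.54, 0.22 and 1.01, none at the threshold.

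The basement membrane collagen gene col4a5 (chromosome 14, 12134624 to 12216214) gave 0.688, 0.987, 0.523, 1.3 and 1.45 CPM in NBH fish, against 3.05, 6.01, 3.92, 2.85 and 8.86 CPM in SC fish (log2 difference -2.31, SE 0.37, adjusted p = 0.000672), with no overlap. It was the 1 called of 18 tested collagens, of which 9 were positive, beside 1.26% called of all tested genes. The metalloprotease gene adam28 (chromosome 12, 44097707 to 44138656) was at 0.86, 1.04, 0.407, 0.699 and 0.759 CPM in NBH fish, against 0.0586, 0, 0, 0 and 0.233 CPM in SC fish (adjusted p = 0.00854). SC fish had 3 counts in all, so the ratio of NBH to SC was 12.4 with a 95% counting interval of 4.04 to 61.5. It was the 1 called of 59 tested genes on the list of matrix, proteases and integrins, a share near that of all tested genes.

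Of the cell cycle and replication list, 25 of 33 tested genes were positive, the median was 0.42, and 1 was called. Over all tested genes 50.3% were positive, the median was 0.0021 and 1.26% were called. tyms, the thymidylate synthase that supplies a DNA precursor (chromosome 21, 10059272 to 10065127), gave 4.99, 3.54, 2.21, 4.64 and 1.86 CPM in NBH fish, against 0.235, 0.384, 0.27, 0 and 1.05 CPM in SC fish (log2 difference 3.17, SE 0.63, adjusted p = 0.00734). The lowest NBH fish was above the highest SC fish, but with the depth covariate the difference was 2.79 and not called (adjusted p = 0.0684).

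In all, 10 of 28 function lists held a called gene, and 11 of the 987 genes tested on them were called (1.11%), close to the 1.26% of all tested genes. The lists were matched by gene symbol, so genes with LOC numbers only are not on them. Such genes are 4298 of those tested and 67 of the 171 called, and the 1.26% includes them. Some lists without a call lay mostly to one side. Of the 75 tested cytosolic ribosomal protein genes, 73 were positive with a median of 0.32, beside 50.3% positive over all tested genes. Of the 13 genes of the mitochondrial genome, 2 were positive and the median was -0.52. Nuclear genes of oxidative phosphorylation had a median of 0.11 with 44 of 67 positive. Nuclear receptor genes had a median of -0.23 with 11 of 39 positive, and the transporter list had -0.14 with 12 of 38. Chaperones and heat shock genes were balanced, with 33 of 65 positive and a median of 0.0054. The part of library size and of mitochondrial RNA content in these medians was not tested.

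**Figure D3:**
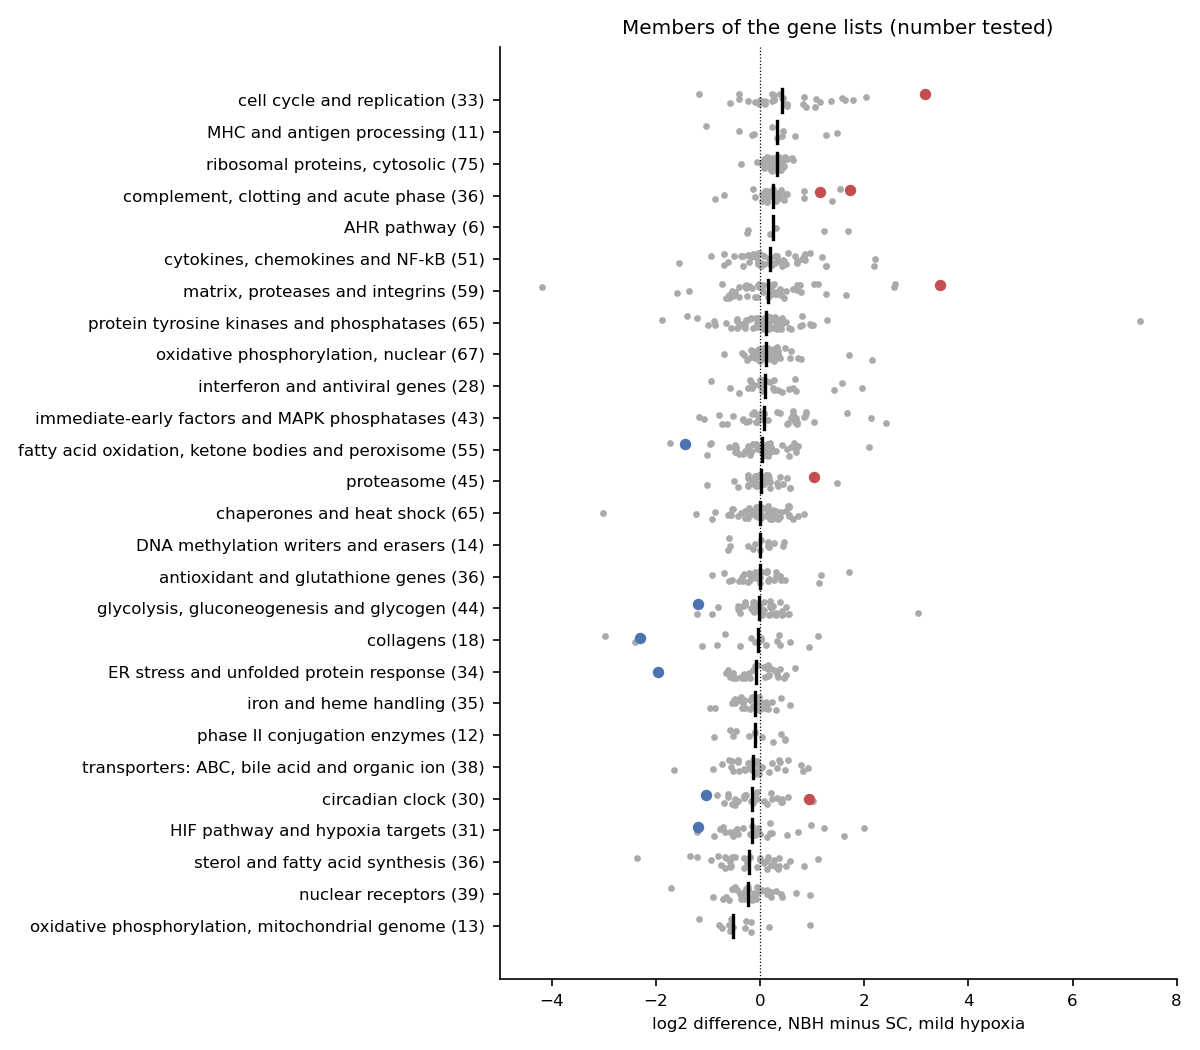
Each row is 1 gene list with its number of tested genes, each grey point is 1 gene's log2 difference, NBH minus SC, under mild hypoxia, red and blue points are called genes higher and lower in NBH fish, black ticks are medians and the dotted line is the median of all tested genes (0.0021). Ribosomal protein and cell cycle genes lie to the right (medians 0.32 and 0.42) and genes of the mitochondrial genome to the left (median -0.52).

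Several called genes were at or near 0 in one of the populations. eif3ea, a gene for the e subunit of the initiation factor eIF3, had 0, 268, 0, 303 and 99 counts in NBH fish and 0 counts in every SC fish (adjusted p = 0.0231). The NBH mean was thus at least 22.4-fold higher than a floor of 3 counts in each of the 5 SC libraries. NBH fish 1 and 3 were themselves at 0. Over all 3 oxygen levels, 12 of 15 NBH fish and 0 of 15 SC fish had more than 3 counts. This total, like those below, includes the mild hypoxia fish in which the gene was called. Outside mild hypoxia, 5 of 5 NBH control fish and 4 of 5 NBH severe hypoxia fish passed 3 counts, and no SC fish did. The cation channel gene trpc1 had 109, 120, 83, 134 and 0 counts in NBH fish and 0 in every SC fish, at least 14.8-fold higher by the same floor (adjusted p = 0.0154). NBH fish 5 was the exception. Over all oxygen levels 11 of 15 NBH fish and 0 of 15 SC fish passed 3 counts of trpc1, among them 4 NBH control and 3 NBH severe hypoxia fish. With the depth covariate the difference of trpc1 was 8.55 and not called (adjusted p = 0.0979). ndrg4 had 84, 348, 84, 1 and 289 counts in NBH fish and 5, 1, 0, 1 and 2 in SC fish (adjusted p = 0.0191), with 11 of 15 NBH and 2 of 15 SC fish above 3 counts at the 3 levels together. Outside mild hypoxia these were 4 NBH control, 3 NBH severe hypoxia and 1 SC control fish. Under mild hypoxia, for each of these genes, a fish was either at 83 counts or more or at most at 5. The genes were picked for having, within a mild hypoxia group, fish at 3 counts or fewer and fish at 50 or more. The gap therefore follows in part from that choice. NBH control fish also had counts within the gap, such as 54 and 58 for eif3ea, 37 and 41 for trpc1 and 8 and 62 for ndrg4.

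The reverse pattern was seen for rgra, a retinal G protein-coupled receptor gene, with 2, 5, 2, 1 and 2 counts in NBH fish and 51, 17, 2, 17 and 31 in SC fish (adjusted p = 0.0358). SC fish 3 was as low as the NBH fish, and the call was lost without NBH fish 1, 2, 4 or 5 or SC fish 1, 2, 4 or 5 (adjusted p up to 0.0987) and with the depth covariate (adjusted p = 0.0664). Over all oxygen levels 4 of 15 NBH fish and 14 of 15 SC fish had more than 3 counts of rgra. Outside mild hypoxia these were 1 NBH control, 2 NBH severe hypoxia, 5 SC control and 5 SC severe hypoxia fish. marveld2b and kcng2 were at 0 in all 5 NBH fish, at least 4.75-fold and 2.32-fold lower than in SC fish by a floor of 3 counts in each NBH library. The calls for eif3ea and ndrg4 also hung on single fish, being lost without NBH fish 2 or SC fish 1, 2 or 5 (adjusted p up to 0.0572) and with the depth covariate (adjusted p = 0.0912) for eif3ea and without SC fish 2 (adjusted p up to 0.0532) and with the depth covariate (adjusted p = 0.0575) for ndrg4.

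**Figure D4:**
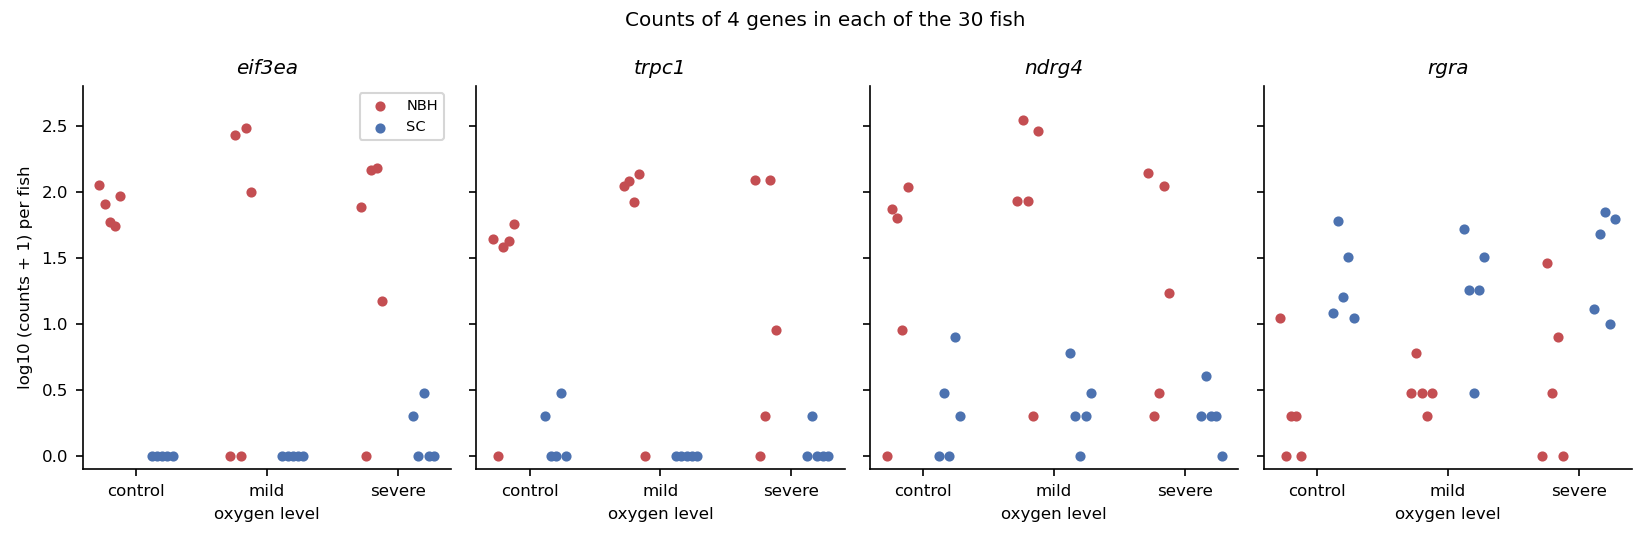
Counts of eif3ea, trpc1, ndrg4 and rgra in each of the 30 fish, as log10 of counts plus 1, at control, mild and severe hypoxia, with NBH left of SC at each level. SC fish are at 0 to 7 counts for the first 3 genes at every level while NBH fish range from 0 to 348 counts, and rgra is higher in most SC fish.

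Genes with LOC numbers only made up 38 of the higher and 29 of the lower calls. The 3 smallest adjusted p of the comparison were among them, those of LOC118556187, LOC105938180 and LOC118562401. LOC118562401 had 1 count over the NBH fish and 698 over the SC fish (log2 difference -9.50, adjusted p = 3.25e-06). LOC105938180 (chromosome 12, 27446887 to 27455134) gave 51.5, 55.9, 40.6, 65.5 and 30.6 CPM in NBH fish, against 1.35, 0.768, 1.49, 1.54 and 1.98 CPM in SC fish (log2 difference 5.09, SE 0.53, adjusted p = 1.57e-06), and LOC118564141 (chromosome 9, 10657243 to 10672339) averaged 221 ± 60.9 CPM in NBH fish and 2.27 ± 0.951 CPM in SC fish (SD, n = 5 each; log2 difference 6.58, SE 0.84, adjusted p = 4.21e-05). Downwards, LOC118564529 (chromosome 11, 14618582 to 14660964) averaged 0.75 ± 1.45 CPM in NBH fish and 102 ± 25 CPM in SC fish (SD, n = 5 each; log2 difference -7.00, SE 1.4, adjusted p = 0.00756). LOC118556187 (chromosome 7, 36605933 to 36626852) gave 4.65, 4.29, 3.55, 3.29 and 3.93 CPM in NBH fish, against 44.1, 43, 21, 35.2 and 40.9 CPM in SC fish (log2 difference -3.22, SE 0.27, adjusted p = 2.63e-08), the smallest adjusted p of the comparison. These genes were chosen after their values were seen, and the annotation used here gives them no function. Of the 154 called genes placed on chromosomes, 15 (9.74%) had a called gene as a direct neighbour among tested genes, whereas 305 of 11697 placed tested genes (2.61%) did, and all 8 adjacent pairs moved in the same direction. The spans of LOC105929111 and LOC118562401 overlap, and 53 bases lie between si:ch211-217a12.1 and pdia4. LOC118565206 pairs with both LOC105926557 and LOC105924952. The strand setting of the counting was not given, so reads of overlapping genes may be shared.

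The same populations were also compared in other fish, held as controls or under severe hypoxia. Those fish are separate animals of the same laboratory-raised generation. The paper left an NBH severe hypoxia fish, which it did not name, out of its tests as an outlier, whereas all fish were kept here. NBH severe hypoxia fish 5 had the smallest library, at 4955114 counts. In control fish 221 genes were called (1.62% of those tested, 0.882% higher and 0.742% lower in NBH fish) and under severe hypoxia 994 (7.31%, of which 3.9% higher and 3.4% lower). Of the 171 genes of mild hypoxia, 159 had the same sign in control fish and 153 under severe hypoxia, or 93.0% and 89.5%, beside 58.6% and 55.9% of all tested genes. In control fish 47 of the 171 were called, and 79 were called under severe hypoxia, all in the same direction. The 47 shared genes are 27.5% of the mild hypoxia genes and 21.3% of those of control fish, and the 79 are 46.2% and 7.95% of the severe hypoxia genes. At both levels 37 were called and at neither 82. The median size of the difference over the 171 genes was 1.01 in control fish, 1.81 under mild hypoxia, where the genes had been chosen, and 0.96 under severe hypoxia, beside 0.27, 0.27 and 0.33 over all tested genes.

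Several of the named genes differed at all 3 oxygen levels. For osmr the log2 differences were 2.64 in control fish, 2.85 under mild and 2.04 under severe hypoxia (adjusted p = 0.00146, 0.000672 and 0.00505). For pdk3a they were -1.26, -1.18 and -0.96, for ghra -1.78, -1.88 and -1.89, and for setd4 -2.31, -2.39 and -2.43, all called. Each of these 4 genes had similar differences at the 3 levels. ccn1 was called throughout, with -2.04 in control fish, -2.74 under mild and -4.05 under severe hypoxia. In control fish it averaged 2.73 ± 0.89 CPM in NBH fish and 11.4 ± 3.42 CPM in SC fish, and under severe hypoxia 4.63 ± 2.08 CPM in NBH fish and 76.8 ± 41.5 CPM in SC fish (SD, n = 5 each). Others called throughout were lratd1, tmem70, rnf150a, paics, pdia4, aqp1, adam28, eif3ea, trpc1 and ndrg4.

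Other named genes were called under mild hypoxia and at neither other level. c9 differed by 0.6 in control fish and 0.33 under severe hypoxia, xiap by 0.46 and 0.12, tefa by -0.44 and -0.16, and clockb by 0.13 and -0.08, all short of the threshold. mcrip2, at -1.27 under mild hypoxia, was 0.05 in control fish and -0.19 under severe hypoxia. A call at one level and none at another does not show that the levels differ, for which the shift itself was tested.

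**Figure D5:**
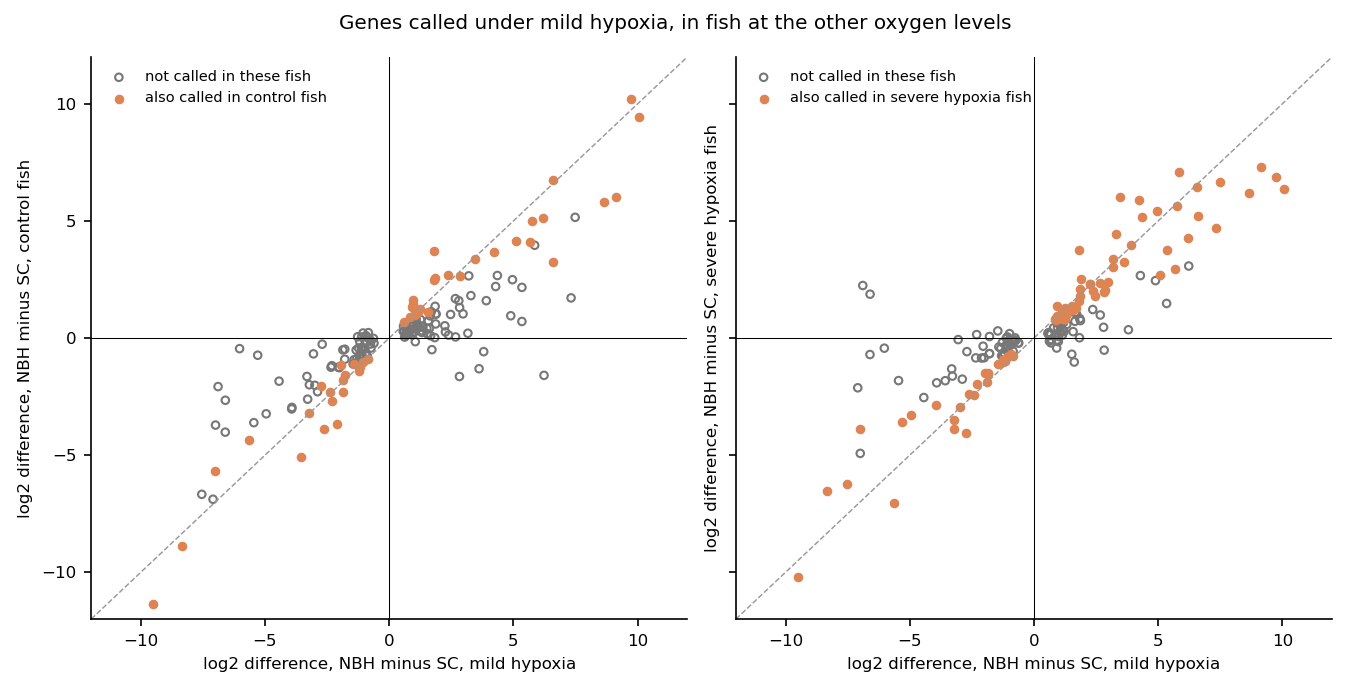
Each point is 1 of the 171 genes, with its log2 difference, NBH minus SC, under mild hypoxia on the horizontal axis and in control fish (left) or severe hypoxia fish (right) on the vertical axis; orange points are also called there and the dashed line marks equal differences. Most points lie in the quadrants of equal sign (159 in control and 153 in severe hypoxia fish) and nearer to 0 than the line.

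A shift of the population difference was tested as the difference under mild hypoxia minus that in control fish. No gene was called, 0 of 13605 by edgeR's quasi-likelihood test, with a smallest adjusted p of 0.106, while 1045 genes (7.68%) had an unadjusted p under 0.05 and DESeq2 called 36. Without NBH fish 3 the count was 17. For edil3a the shift was -4.56 (SE 1.05, adjusted p = 0.201), with 30.1, 55.1, 3.71, 28.1 and 0.938 CPM in NBH fish, against 30.8, 43.2, 57.9, 21.6 and 41 CPM in SC fish among controls. NBH control fish 1, 2 and 4 were in the SC range and fish 3 and 5 far below it. For c7b the shift was 2.22 (SE 0.54, adjusted p = 0.201), with 318 ± 59.7 CPM in NBH fish and 449 ± 137 CPM in SC fish in control fish (SD, n = 5 each). In clockb and xiap the shifts were 0.81 (adjusted p = 0.433) and 0.68 (adjusted p = 0.512). These values are from edgeR. DESeq2 called the shifts of edil3a (-4.57, adjusted p = 0.0142) and c7b (2.21, adjusted p = 0.0224), and not those of clockb and xiap. It also called that of hif1al on the HIF list (2.37, adjusted p = 0.00307).

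Against severe hypoxia the shift was called in 22 genes (0.162% of those tested), with adjusted p between 0.0458 and 0.0464. All NBH severe hypoxia fish are in this test, among them the outlier that the paper left out. In 20 of them (0.147%) the difference was more positive under mild than under severe hypoxia, and all 20 were lower in NBH fish under severe hypoxia. The other 2 (0.0147%) ran the other way. 19 of the 22 were called under severe hypoxia, 3 under mild hypoxia and 0 in control fish. All these calls stood near the threshold, and the count was 155 without NBH fish 3 and 0 in 12 of the 29 fits without 1 fish, with the libraries thinned, and with DESeq2's size factors.

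pfkfb3, which makes the activator of the glycolytic enzyme phosphofructokinase, had the largest shift, 5.73 (SE 1.05, adjusted p = 0.0458). Under mild hypoxia it gave 0.86, 0.348, 0.291, 0.699 and 2.14 CPM in NBH fish, against 0.176, 0.256, 0.406, 0.119 and 0.117 CPM in SC fish, all low. Under severe hypoxia it gave 0.493, 0.319, 0.224, 0.551 and 0 CPM in NBH fish, against 7.45, 6.28, 1.01, 1.12 and 7.95 CPM in SC fish, and every SC fish was above every NBH fish. dusp16, a phosphatase that turns off MAP kinases, shifted by 2.82 (SE 0.53, adjusted p = 0.0458), with 2.87, 3.66, 1.98, 8.64 and 4.48 CPM in NBH fish, against 1.88, 1.54, 2.84, 3.21 and 1.17 CPM in SC fish under mild hypoxia. Under severe hypoxia it averaged 3.19 ± 0.802 CPM in NBH fish and 11.1 ± 7.37 CPM in SC fish (SD, n = 5 each). The SC means lay further apart between these levels than the NBH means.

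The 3 shifted genes also called under mild hypoxia were bmf2, sdc4 and col4a5. bmf2, a pro-apoptotic gene, gave 2.12, 1.1, 0.988, 3 and 2.97 CPM in NBH fish, against 0.293, 0.768, 0.811, 0.713 and 0.816 CPM in SC fish under mild hypoxia (log2 difference 1.62, SE 0.4, adjusted p = 0.0358). Under severe hypoxia it averaged 1.64 ± 1.1 CPM in NBH fish and 3.13 ± 0.966 CPM in SC fish (SD, n = 5 each), the opposite order, and the shift was 2.65 (SE 0.54, adjusted p = 0.0458). sdc4, a heparan sulfate proteoglycan gene, averaged 17.9 ± 3.79 CPM in NBH fish and 9.5 ± 2.25 CPM in SC fish under mild hypoxia (adjusted p = 0.0178) and 13.5 ± 1.48 CPM in NBH fish and 18.1 ± 4.81 CPM in SC fish under severe hypoxia (SD, n = 5 each), with a shift of 1.34. col4a5 ran the other way, being lower in NBH fish under mild hypoxia, while under severe hypoxia it averaged 2.48 ± 1.29 CPM in NBH fish and 2.18 ± 0.504 CPM in SC fish (SD, n = 5 each). Its shift was -2.45 (SE 0.5, adjusted p = 0.0458). The calls for bmf2 and sdc4 under mild hypoxia were lost without NBH fish 1, 4 or 5 or SC fish 1, 2, 3, 4 or 5 (adjusted p up to 0.106) for bmf2 and without NBH fish 1 or SC fish 2 (adjusted p up to 0.0595) and with the depth covariate (adjusted p = 0.0552) for sdc4.

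The response of each population to mild hypoxia was read for the same genes as the difference from control fish of that population. These contrasts share the 10 mild hypoxia fish with the population comparison. Over all tested genes 2862 (21%, with 11% rising and 10.1% falling) were called in NBH fish and 1851 (13.6%, with 7.24% rising and 6.37% falling) in SC fish, and among the 171 genes 51 were called in NBH fish and 21 in SC fish, 8 of them in both, while 107 were called in neither. In NBH fish edil3a fell by 4.91 relative to control (adjusted p = 0.000351), and in SC fish its response was -0.35 (adjusted p = 0.762). c9 rose in both populations, by 1.2 (adjusted p = 0.000566) in NBH fish and 0.65 (adjusted p = 0.0447) in SC fish. c7b rose in NBH fish, by 1.95 (adjusted p = 0.00114), and its response was -0.26 (adjusted p = 0.675) in SC fish. clockb rose in NBH fish, by 1.02 (adjusted p = 0.00137), with 0.22 (adjusted p = 0.514) in SC fish. tyms had a response of 0.5 (adjusted p = 0.516) in NBH fish and fell in SC fish, by 2.46 (adjusted p = 0.0114). pdia4 rose in SC fish, by 1.55 (adjusted p = 0.00112), with 0.74 (adjusted p = 0.0745) in NBH fish. osmr, paics, ghra and setd4 were called in neither population.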

How the data were processed

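Each liver library is 1 fish. Stranded single-end reads were trimmed with Trimmomatic, aligned with STAR to the killifish genome and counted per gene with HTSeq-count by the authors, who deposited raw counts; the strand setting of the counting was not given in the sources used here, so reads of overlapping genes may be shared. Rows without a gene (at most 0.00738% of counts in the mild hypoxia libraries) were left out. All 30 libraries were fitted together with edgeR 4.0.16 (R 4.3.3, limma 3.58.1): filterByExpr over the 6 groups kept 13605 of 34065 genes, with TMM scaling, 1 mean per group, the quasi-likelihood test and Benjamini-Hochberg adjustment over all tested genes, threshold 0.05. CPM per fish are TMM-scaled; SE is the log2 difference over the square root of F. Named genes were the 15 largest differences in each direction among called, named genes averaging 5 CPM or more with separate populations, called list members, tested AHR and HIF genes (printed in part), and shifted genes; 1 called gene is not reported here. Symbols and positions come from RefSeq (32227 genes matched); genes matched to a list by symbol in error (such as kinases and coactivators) were taken out. The comparison, lists and rules were chosen with earlier results of these data known. Fish count as independent; families were not modelled. DESeq2 1.42.0, other filters and scalings, thinning, a depth covariate, a replicate block and single fish left out were alternatives; leaving out control and severe hypoxia fish was added after seeing the data. The steps were tested on simulated data. Intervals and floors cover counting error only. Methylation libraries, promoters and sequences were not analysed here.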

Additional observations from a re-analysis of the deposited data

Results flagged for a closer look

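In groups of 5 fish, a single fish stood apart from the others of its population for 11 of the 100 gene and population groups looked at, by Dixon's ratio of its gap to the range above 0.71. For 1 group taken alone chance gives about 1 in 20. That share does not apply to this count, since most of the genes were chosen by their mild hypoxia values and the groups share the same fish. Some, such as trpc1 and rgra, were picked for holding fish at 3 counts or fewer beside fish at 50 or more. For bmf2 the SC fish had 5 to 7 counts each. Among NBH fish these were fish 3 for c7b (ratio 0.904; 214 CPM, the others 1353 to 1647 CPM), fish 5 for edil3a (0.890; 1.45 CPM, the others 0.574 to 0.639 CPM), for eif2b1 (0.747; 6.62 CPM, the others 22 to 32.9 CPM) and for trpc1 (0.909; 0 CPM, the others 4.82 to 6.96 CPM), fish 4 for paics (0.772; 193 CPM, the others 111 to 126 CPM) and for pdk3a (0.743), and fish 2 for rdh12 (0.801; 12.9 CPM, the others 23.6 to 27.4 CPM). Among SC fish they were fish 1 for bmf2 (0.856) and for pdia4 (0.853; 49.9 CPM, the others 99.0 to 111 CPM), and fish 3 for ghra (0.855; 43.9 CPM, the others 11.8 to 14.3 CPM) and for rgra (0.750; 0.270 CPM, the others 2.02 to 3.61 CPM).

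The population difference under mild hypoxia differed from that under severe hypoxia in 22 genes by the test of the shift itself, with adjusted p between 0.0458 and 0.0464. The count was 0 in 12 of the 29 fits without 1 fish. The shift, mild minus severe on the log2 scale, was 5.73 for pfkfb3, 2.82 for dusp16, 2.81 for LOC105925309, 2.65 for bmf2, 1.99 for nsmaf, 1.70 for zfand2a, 1.69 for polr1f, 1.63 for LOC105915743, 1.59 for brd2a, 1.58 for hspbp1, 1.56 for ifrd1, 1.47 for zgc:92606, 1.41 for mak16, 1.37 for zpr1, 1.34 for sdc4, 1.3 for id3, 1.25 for phka2, 1.24 for psme3, 1.09 for timm17a and 0.97 for wdr43, and it was -2.45 for col4a5 and -1.88 for LOC105916443. Among these are zfand2a and hspbp1, which act with chaperones and the proteasome, psme3, a proteasome activator, and polr1f, mak16 and wdr43, which serve ribosome making. Of the 45 tested genes on the proteasome list 1 shifted, psme3, and of the 65 on the chaperone list 1, hspbp1, beside 0.162% of all tested genes. No list of ribosome-making genes was used here. Whether these roles are more common among the 22 than among all tested genes was not tested. zfand2a averaged 7.46 ± 1.91 CPM in NBH fish and 6.75 ± 1.18 CPM in SC fish under mild hypoxia and 7.77 ± 2.17 CPM in NBH fish and 22.6 ± 8.28 CPM in SC fish under severe hypoxia, and hspbp1 averaged 7.91 ± 1.66 CPM in NBH fish and 5.35 ± 1.06 CPM in SC fish under mild and 6.71 ± 1.25 CPM in NBH fish and 13.7 ± 5.07 CPM in SC fish under severe hypoxia (SD, n = 5 each). In both genes the NBH means at these levels lay nearer to each other than the SC means did.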

How the results depend on the processing

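The count of 171 genes (95 higher, 76 lower) was 106 to 330 without 1 of the 10 mild hypoxia fish and 158 to 207 without 1 control or severe hypoxia fish. It was 447 with DESeq2, 284 with the newer quasi-likelihood method, 108 with the filter without groups (fewer genes tested) and 68 with the log2 total as a covariate, and within 1.5 times of 171 elsewhere; without TMM factors it was 221, split 69 and 152, with a median of all genes shifted to -0.11. The shift against control, 0 genes, was 1 with 29 fish (without NBH severe hypoxia replicate 5), with only the groups compared and with no filter, 3 with the covariate, 36 with DESeq2 and 0 to 17 over single fish left out, 17 without NBH mild hypoxia replicate 3. The shift against severe hypoxia, 22 genes, was 39 with 29 fish, 0 to 155 over single fish left out, 0 with only the groups compared, without TMM factors, with DESeq2 size factors and thinned, 216 with DESeq2, 35 with the newer method and 2 with the covariate. Of the 171 genes, 47 were also called in control fish, or 81 with only the groups compared, 116 with DESeq2, 72 with the newer method, 30 with the filter without groups and 21 with the covariate, and 34 to 60 over single fish left out. For severe hypoxia, 79 became 155, 123, 49 and 34 with DESeq2, the newer method, the filter without groups and the covariate, and 57 to 100 over single fish. No pairing by replicate number was seen, as same-numbered mild hypoxia fish correlated between -0.20 and 0.080 and 0 of 5 pairs passed 0.1. Pairs of unlike number ran from -0.13 to 0.16. So few pairs cannot exclude a batch shared by number. The replicate block gave 167 genes for the mild hypoxia difference and 0 for the shift against severe hypoxia. With it, 50 and 76 genes were shared with control and severe hypoxia fish. Single named genes gave 52 results and 2119 alternative values, of which 1917 kept direction and side of the threshold, 195 lost it, 4 gained it and 3 reversed, all 3 of hif1aa, whose difference of -0.04 became 0.0044 without NBH fish 1, 0.0043 without SC fish 1, both of mild hypoxia, and 0.040 when thinned. The cause of these moves was not tested. With 4 of 5 SC libraries at or under 8466811 counts, small differences in genes of a few counts were not detectable at this depth.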

Other observations

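Other genes past the threshold under mild hypoxia, picked here after their values were seen, covered further roles. samhd1, an enzyme that removes DNA precursors and restrains viruses, gave 60.4, 25.1, 14.2, 86.6 and 27.7 CPM in NBH fish, against 12.9, 15, 15.4, 9.27 and 7.58 CPM in SC fish (log2 difference 1.83, SE 0.4, adjusted p = 0.0169). NBH fish 4 and 1 were the highest and NBH fish 3 fell within the SC range. In NBH fish samhd1 rose over control by 2.41 (adjusted p = 0.000351), with 0.6 (adjusted p = 0.33) in SC fish. polq, a DNA polymerase of break repair whose span overlaps uba6, gave 2.75, 1.74, 1.74, 2.2 and 2.55 CPM in NBH fish, against 0.528, 0.256, 0.946, 0.475 and 0.933 CPM in SC fish (log2 difference 1.81, SE 0.36, adjusted p = 0.00696), with no overlap, and was called at all 3 oxygen levels. tsc2, a brake on mTOR growth signalling, gave 64.8, 54.4, 31, 33.9 and 34.9 CPM in NBH fish, against 23.9, 17, 21.4, 27.7 and 23.4 CPM in SC fish (log2 difference 0.95, SE 0.24, adjusted p = 0.0403) and differed by 1.62 in control fish and 1.37 under severe hypoxia, both called. nuak1b, a kinase gene related to the energy sensor AMPK, averaged 6.87 ± 1.25 CPM in NBH fish and 1.82 ± 1.52 CPM in SC fish (SD, n = 5 each; log2 difference 1.81, SE 0.46, adjusted p = 0.0415).

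Lower in NBH fish were lpcat3, an enzyme that remodels membrane phospholipids, at 11.4, 10.6, 14.3, 12.9 and 21.9 CPM in NBH fish, against 52.8, 28.5, 22.7, 44.6 and 18.3 CPM in SC fish (log2 difference -1.23, SE 0.27, adjusted p = 0.0181), and pgrmc1, a heme-binding membrane protein gene, at 153, 128, 165, 123 and 142 CPM in NBH fish, against 176, 313, 279, 172 and 262 CPM in SC fish (log2 difference -0.76, SE 0.18, adjusted p = 0.0276). For lpcat3 NBH fish 5 overlapped SC fish 5, and for pgrmc1 the populations were separate. In pgrmc1, at 259.5 ± 17.1 CPM in NBH fish and 310.1 ± 20.7 CPM in SC fish among controls (SD, n = 5 each), the NBH fish under mild hypoxia were below NBH control fish, with a response of -0.87 (adjusted p = 0.0016), and the SC response was -0.37 (adjusted p = 0.168). tmx1, a thioredoxin-like protein of the endoplasmic reticulum, gave 6.25, 6.44, 6.45, 6.04 and 6.14 CPM in NBH fish, against 10.4, 14.5, 11.1, 9.15 and 11.1 CPM in SC fish (log2 difference -0.84, SE 0.2, adjusted p = 0.0262). Its 5 NBH fish lay within 6.04 and 6.45 CPM, a far narrower range than the SC fish. mbtps1, the protease that activates the sterol regulatory factors, was higher in NBH fish at 31.4 ± 5.92 CPM in NBH fish and 20.4 ± 2.32 CPM in SC fish (SD, n = 5 each; log2 difference 0.62, SE 0.16, adjusted p = 0.0411), while the list of sterol and fatty acid synthesis genes had 14 of 36 positive, a median of -0.20 and 0 called. Over all tested genes 50.3% were positive and 1.26% called.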
